A study of Mus musculus with 6 samples.

Results

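Vesicles that leave the trans-Golgi network, the endosome or the plasma membrane are built by adaptor proteins, and the genes that encode these adaptors were read here in the neocortex of mice without HuD. A gene was included when its symbol was that of a subunit of the adaptor protein complexes AP-1 to AP-5, a subunit of BLOC-1 (biogenesis of lysosome-related organelles complex 1), a GGA protein or *Clint1*. Of 13299 genes listed in FPKM (fragments of a gene, scaled by its transcript length and by the size of the library), 39 met the rule, with 7 genes of AP-1, 5 of AP-2, 7 of AP-3, 4 of AP-4, 4 of AP-5, 8 of BLOC-1 and 4 monomeric clathrin adaptors. The rule used symbols only and no measured value. *Ap1m2*, the other medium chain of AP-1, was not among the genes listed and so was not analysed here. No listed gene had a mean below 0.5 FPKM in both genotypes.

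Each AP complex joins a pair of large subunits, a medium (mu) subunit and a small (sigma) subunit, binds sorting signals in the tails of membrane proteins, and collects that cargo into a vesicle. AP-1 and AP-2 recruit clathrin at the trans-Golgi network or endosome and at the plasma membrane, and in neurons AP-2 retrieves synaptic vesicle proteins after release. AP-3 sorts cargo from endosomes to lysosome-related organelles and synaptic vesicles, AP-4 exports the autophagy protein ATG9A from the trans-Golgi network, AP-5 acts at late endosomes, and BLOC-1 acts beside AP-3 on endosomal tubules.

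RNA had been sequenced from the cortices of 3 HuD KO males and 3 wildtype male littermates (controls), adults of about 3 to 4 months on a C57BL/6 background. HuD KO mice (*Elavl4*-/-) carry a constitutive allele in which a PGK-Neo cassette replaces exon 2 of *Elavl4*, the gene of the neuronal RNA-binding protein HuD, and shifts the reading frame. This loss is restricted neither to a cell type nor to an age. The study set HuD KO replicate 2 aside as an outlier, and the main test compared HuD KO replicates 1 and 3 with the 3 controls, followed by a comparison of all 6 libraries.

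*Elavl4* (chr4:110203722-110351909, mm10) was at 34.2, 30.4 and 28.3 FPKM in controls 1 to 3 and at 1.70, 1.07 and 1.52 FPKM in HuD KOs 1 to 3, so every library matched its label. Its log2 fold change was -3.61 (SE 0.107, limma adjusted p = 0.000687). All 8 neuron markers were present in each library, with a sum of 868 to 1073 FPKM. Excitatory neuron markers, none of the 6 at 0, summed to 272, 300.2 and 234 FPKM in controls 1 to 3 and to 362, 410 and 387 FPKM in HuD KOs 1 to 3, without overlap, and 5 of the 6 had fitted values above 0. Oligodendrocyte markers summed to 377 to 470 FPKM in controls and 450.3 to 479 FPKM in HuD KOs, with all 8 above 0, and meningeal fibroblast markers to 24.7 to 50.8 FPKM in controls and 14.8 to 19.1 FPKM in HuD KOs, with all 8 below 0. The part of these marker differences in the adaptor values was not tested. Markers of neighbouring tissue also differed between libraries. Hypothalamic neuropeptides summed to 263 FPKM in control 3 and to 1.17 to 2.87 FPKM elsewhere, and choroid plexus markers summed to 297, 161 and 88.2 FPKM in control 3, HuD KO 1 and HuD KO 3 and to 2.31 to 5.56 FPKM in the others. Striatal markers summed to 115 FPKM in control 3, 140 FPKM in HuD KO 1, 81.1 FPKM in HuD KO 2 and 43.9 to 47.4 FPKM in the rest. No counts are given, so depth is unknown, and in bulk tissue fewer cells of a type and less RNA per cell cannot be told apart.

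Several subunits exist as paralogs that take the same place in a complex, and their levels can be compared only where their mRNAs can be told apart. In GENCODE M21 coding sequences, the longest run of identical bases was 12 to 21 bases for every paralog pair other than *Ap2a1* and *Ap2a2*, whose run was 68 bases. The closest stretches of 3 of the pairs are shown here, since their balance is described further on (GRCm38, coding strand, capitals marking the shared run). The AP-1 sigma genes *Ap1s2* (chrX:163917778-163917807, plus strand, exon 4) and *Ap1s3* (chr1:79614239-79614268, minus strand, exon 4) share 21 bases:
Ap1s2: gaagTTCAGGAAACATCCAAGAAAAatgtc
Ap1s3: gaaaTTCAGGAAACATCCAAGAAAAcagca
The AP-3 beta genes *Ap3b1* (chr13:94408802-94408831, plus strand, exon 6) and *Ap3b2* (chr7:81477600-81477629, minus strand, exon 6) share 18 bases:
Ap3b1: ttaattGAAGTCATTGAGAAGCTTctgaaa
Ap3b2: ctgataGAAGTCATTGAGAAGCTTttggca
The AP-3 mu genes *Ap3m1* (chr14:21045585-21045614, minus strand, exon 2) and *Ap3m2* (chr8:22803857-22803886, minus strand, exon 2) share 15 bases:
Ap3m1: ttcaacaCCTCACCACTACCTCattagtat
Ap3m2: ccccaccCCTCACCACTACCTCctgagtgt
Some of the bases on either side of the run differ between the paralogs. How reads that match more than 1 gene were counted remains not given in the sources used here.

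The adaptors spanned the range from barely expressed to abundant. Mean levels over the 6 libraries ran from 0.915 FPKM for *Ap5b1* to 89.5 FPKM for *Ap2m1*, with a median of 10.6 FPKM against 5.78 FPKM over all genes. Summed over subunits, controls held 250.4 ± 9.35 FPKM of AP-2 (SD, n = 3), 137.1 ± 14.6 FPKM of AP-1, 130.7 ± 7.13 FPKM of AP-3, 79.9 ± 2.08 FPKM of BLOC-1, 42.4 ± 4.90 FPKM of AP-4, 37.0 ± 2.18 FPKM of the monomeric adaptors and 10.1 ± 0.720 FPKM of AP-5. The sums of AP-1 and AP-3 differed by less than the SD of AP-1, and in control 3 AP-4 summed to 37.6 FPKM and the monomeric adaptors to 37.9 FPKM, so these neighbours in the order were not separated beyond their spread.

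**Figure D1:**
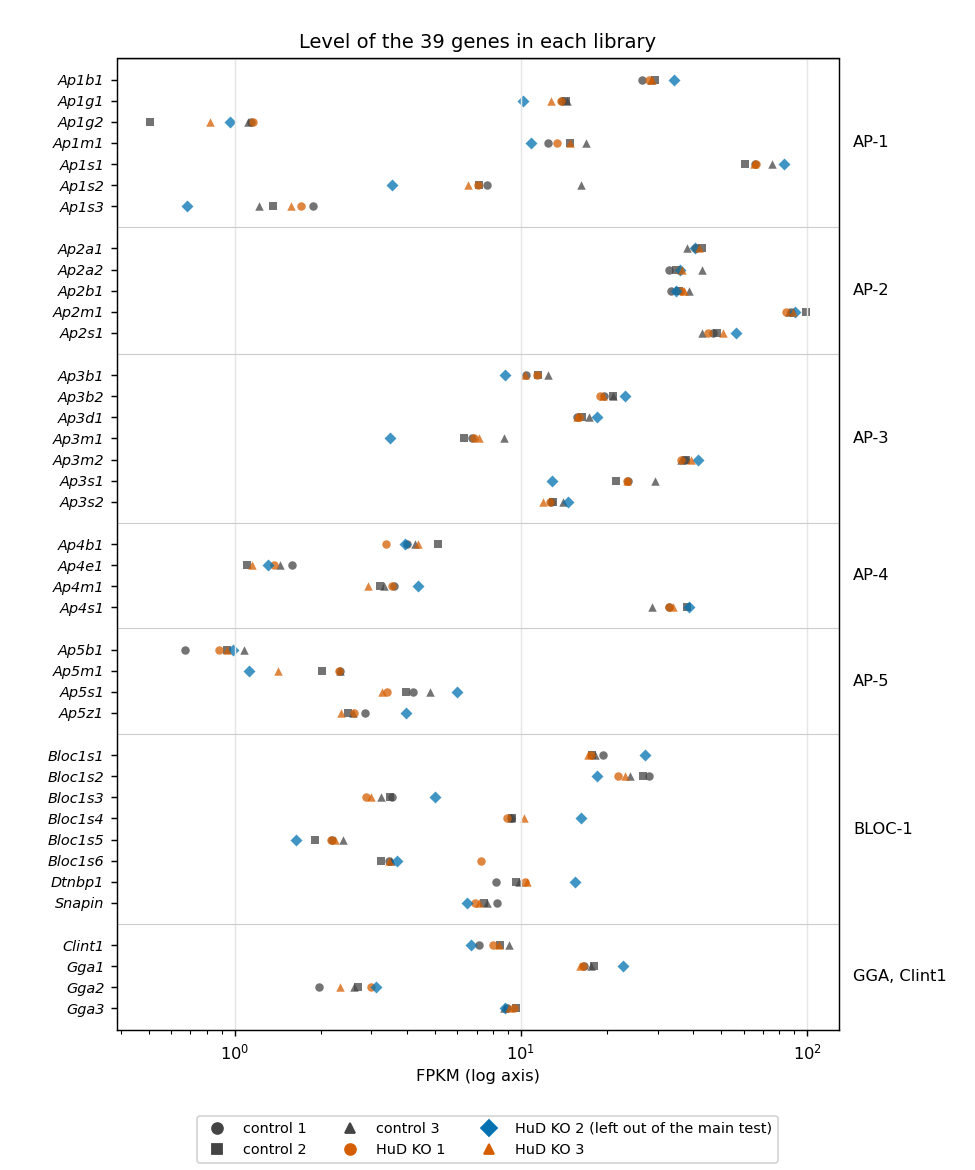
FPKM (x axis, log scale) of the 39 genes, 1 row per gene, grouped by complex. Each point is 1 library, with controls in grey, HuD KO 1 and 3 in orange and HuD KO 2 in blue. The 5 AP-2 genes all lie above 30 FPKM and 3 of the 4 AP-5 genes lie below 4 FPKM in every library, while the blue point is the outermost point of the row for 29 genes.

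The main comparison asked whether loss of HuD changes adaptor mRNA levels. None of the 39 genes passed an adjusted p of 0.05 (limma, smallest adjusted p = 0.995), where 0.0457% of all 13121 genes tested passed. Only *Ap5s1* had an unadjusted p under 0.05, 1 of 39 genes where 3.43% of all genes did. Over all 6 libraries, again none passed (smallest adjusted p = 0.871, with 0.0305% of all genes called), and only *Bloc1s2* had an unadjusted p under 0.05, where 3.48% of all genes did. Fitted values were above 0 for 16 genes, where 44.5% of all genes were, and below 0 for 23. The median log2 fold change was -0.05 over the 39 genes and -0.02 over all genes, and the median size without sign was 0.06 and 0.09.

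On the scale of log2(FPKM + 1), the intervals bound what such a comparison could have missed. This scale understates the change of low genes, such as *Ap5b1* at a mean of 0.915 FPKM. For such genes the intervals say less about FPKM itself. The 95% interval around a log2 fold change was within 0.5 of 0 for 33 of the 39 genes, where 70.7% of all genes did, and within 1 of 0 for 37, where 93.9% of all genes did. The exceptions at the wider bound were *Ap1s2* and *Bloc1s6*. Each held a library far above the other 5.

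**Figure D2:**
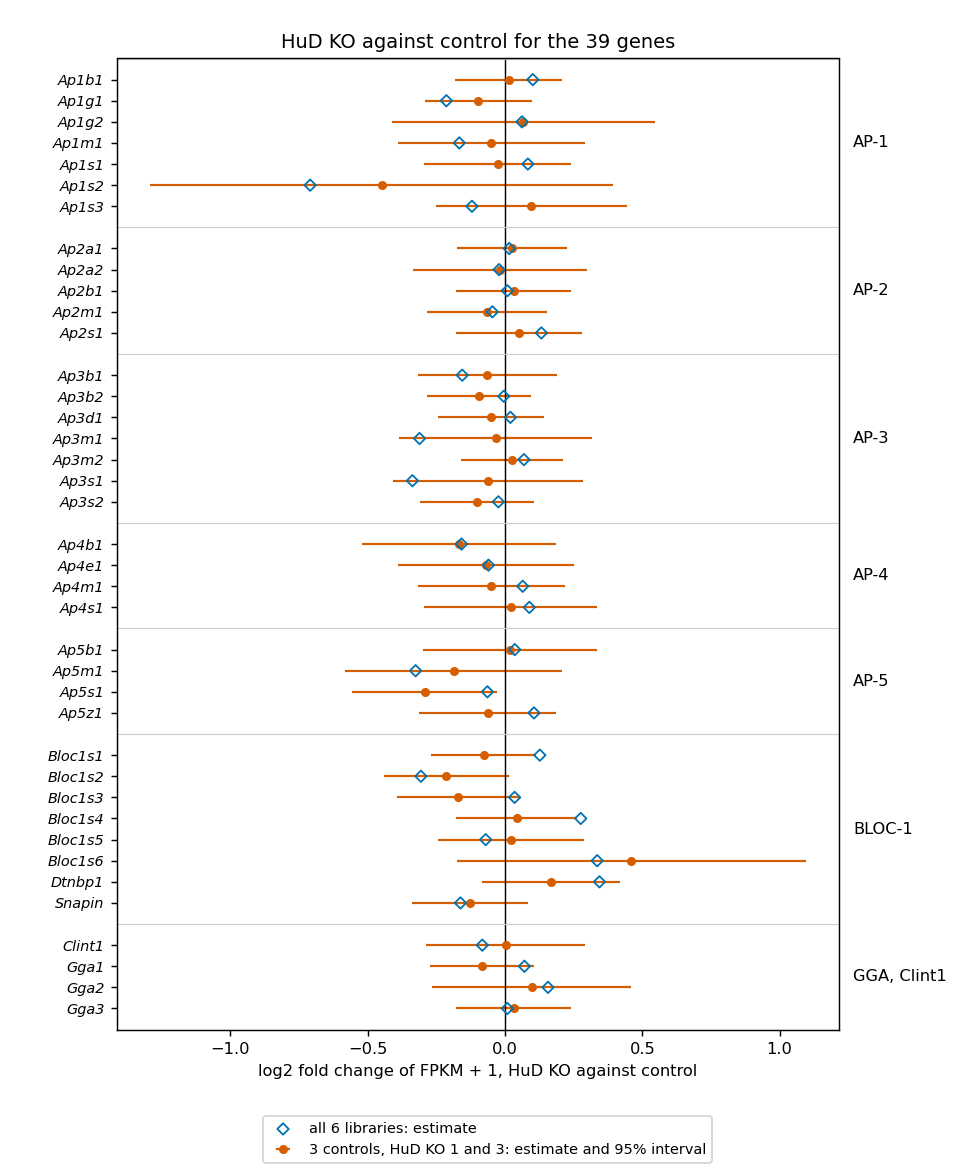
Log2 fold change of FPKM + 1, HuD KO against control (x axis), for the 39 genes by complex. Orange points with bars are the estimate and 95% interval from 3 controls and HuD KO 1 and 3, and open blue diamonds are the estimate from all 6 libraries. Every bar other than that of *Ap5s1* crosses 0, and the widest bars belong to *Ap1s2* and *Bloc1s6*.

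Libraries of the genotypes did not overlap for 11 genes over 5 libraries, where 19.2% of all genes did not overlap. *Dtnbp1* was higher in both HuD KOs than in every control, where 8.2% of all genes were. The other 10 were lower in both HuD KOs, where 11% of all genes were: *Ap1g1*, *Ap1s2*, *Ap3b2*, *Ap3s2*, *Ap5s1*, *Bloc1s1*, *Bloc1s2*, *Bloc1s3*, *Snapin* and *Gga1*. Over all 6 libraries the groups stayed apart for 5 of these, *Dtnbp1* above and *Ap1g1*, *Ap1s2*, *Bloc1s2* and *Snapin* below, where 10.1% of all genes had groups apart (4.43% above and 5.7% below). None of the 5 passed the adjusted threshold.

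In AP-1, the Golgi and endosomal clathrin adaptor, 3 of 7 subunit mRNAs had fitted values above 0 and 4 below. The most abundant was the small subunit *Ap1s1*, at 65.5, 60.7 and 75.6 FPKM in the control libraries and 66.4, 82.9 and 65.0 FPKM in the HuD KO libraries (log2 fold change -0.03, 95% interval -0.30 to 0.24). HuD KO 2 was the highest library and the other HuD KOs lay among the controls. The least abundant was *Ap1g2*, an alternative gamma chain, at 1.14, 0.505 and 1.11 FPKM in the controls, against 1.16, 0.963 and 0.822 FPKM in the HuD KOs. Its groups overlapped, and 412 of its exon bases lie opposite exons of *Thtpa* on the other strand. The highest log2 fold change was that of *Ap1s3*, another sigma chain, at 0.10 (95% interval -0.25 to 0.45), and it was -0.12 over all 6 libraries. *Ap1s3* stood at 1.87, 1.36 and 1.21 FPKM in the control libraries and 1.70, 0.680 and 1.57 FPKM in the HuD KO libraries, with HuD KO 2 alone below the controls.

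*Ap1g1*, the main gamma chain of AP-1, was at 14.0, 14.3 and 14.5 FPKM in the controls, against 13.8, 10.2 and 12.7 FPKM in the HuD KOs. Of its 7681 exon bases, 1435 lie opposite exons of the antisense gene *Gm17344*. All HuD KOs were below all controls, by little in HuD KO 1 and most in HuD KO 2. Its log2 fold change was -0.10 (95% interval -0.29 to 0.10) over 5 libraries and -0.21 (95% interval -0.52 to 0.09) over 6.

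*Ap1s2* (chrX:163909017-163933666, mm10), the X-linked sigma chain whose human counterpart is mutated in a form of X-linked intellectual disability, had the lowest log2 fold change of the 39 genes. It stood at 7.58, 7.14 and 16.3 FPKM in the control libraries and 7.08, 3.54 and 6.52 FPKM in the HuD KO libraries. Control 3 was far above the other libraries, HuD KO 2 far below, and the remaining 4 lay between 6.52 and 7.58 FPKM. The log2 fold change was -0.45 (95% interval -1.29 to 0.39) and -0.10 without control 3. Over all 6 libraries it was -0.71 (95% interval -1.51 to 0.09). Control 3 is the library with hypothalamic neuropeptides at 263 FPKM, and the part of that tissue in the *Ap1s2* value was not tested.

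As a share of the AP-1 sigma mRNAs, *Ap1s2* made up 10.1%, 10.3% and 17.5% in controls and 9.42%, 4.06% and 8.92% in HuD KOs. The share was lower in every HuD KO than in every control. An exact two-sided permutation test of the share gave p = 0.1 over 6 libraries and p = 0.2 over 5, in each case the smallest p that the group sizes allow, so this design cannot pass 0.05.

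The 5 AP-2 genes, which encode the endocytic adaptor of the plasma membrane, had the highest summed FPKM, and their means differed 2.49-fold at most, the least of the 7 groups. Their log2 fold changes lay between -0.07 and 0.05, with a median of 0.02. *Ap2m1*, the mu chain that reads tyrosine-based signals, was at 87.8, 98.8 and 86.5 FPKM in the controls, against 84.5, 90.4 and 89.1 FPKM in the HuD KOs (log2 fold change -0.07, 95% interval -0.28 to 0.15). *Ap2s1*, the sigma chain, had the highest value of the complex, 0.05 (95% interval -0.18 to 0.28), from 46.8, 48.4 and 43.0 FPKM in the control libraries and 44.9, 56.6 and 50.7 FPKM in the HuD KO libraries. *Ap2b1*, the beta chain and the least abundant of the 5, was at 33.5, 35.7 and 38.5 FPKM in the controls, against 36.3, 34.9 and 37.0 FPKM in the HuD KOs. The genotypes overlapped for all 5 genes. The 95% intervals of all 5 lay within 0.5 of 0.

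The alpha chains *Ap2a1* and *Ap2a2* were close to equal. *Ap2a2* held 44.4%, 44.8% and 52.9% of alpha-chain FPKM in controls and 46.6%, 46.9% and 46.6% in HuD KOs, so that control 3 alone stood apart. The 68-base run that both genes share is shorter than the trimmed reads of the study, so no full read lies inside it. Of the exon bases of *Ap2a1*, 720 lie opposite exons of *Fuz*, and 241 of those of *Ap2a2* lie opposite exons of *Gm16982*. The level of each gene, and so the split, is uncertain.

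In AP-3, the adaptor toward lysosomes and synaptic vesicles, 6 of 7 genes had fitted values below 0 and 1 above, all between -0.10 and 0.02. The lowest was *Ap3s2*, a sigma chain, at 12.8, 12.99 and 14.1 FPKM in the control libraries and 12.6, 14.6 and 11.9 FPKM in the HuD KO libraries (log2 fold change -0.10, 95% interval -0.31 to 0.10). HuD KO 2 was the highest of the 6 and the other HuD KOs were the lowest. The highest was *Ap3m2*, the mu chain enriched in brain and the most abundant subunit, at 37.3, 37.7 and 36.2 FPKM in the controls, against 36.2, 41.4 and 39.4 FPKM in the HuD KOs (log2 fold change 0.02, 95% interval -0.16 to 0.21).

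*Ap3m1*, the widely expressed mu chain, was the least abundant of AP-3, at 6.72, 6.31 and 8.71 FPKM in the control libraries and 6.86, 3.49 and 7.13 FPKM in the HuD KO libraries. *Ap3s1*, the other sigma chain, was at 23.6, 21.4 and 29.4 FPKM in the controls, against 23.5, 12.8 and 23.5 FPKM in the HuD KOs. Of the 7015 exon bases of *Ap3m1*, 2090 lie opposite exons of *Vcl*, so its level and its share of the mu chains are uncertain. For both genes HuD KO 1 and 3 lay within the controls and HuD KO 2 lay far below them. The log2 fold change of *Ap3s1* was -0.06 (95% interval -0.41 to 0.28) over 5 libraries and -0.34 (95% interval -0.91 to 0.24) over 6.

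The balance of AP-3 paralogs was similar in 5 libraries and stood apart in HuD KO 2. *Ap3b2*, the neuronal beta chain, made up 62.8% to 65.1% of beta-chain FPKM in controls, 62.2% and 65.1% in HuD KO 1 and 3 and 72.4% in HuD KO 2. *Ap3m2* made up 80.6% to 85.7% of mu-chain FPKM in controls, 84.0% and 84.7% in HuD KO 1 and 3 and 92.2% in HuD KO 2. *Ap3s2* made up 32.3% to 37.7% of sigma-chain FPKM in controls, 34.9% and 33.7% in HuD KO 1 and 3 and 53.2% in HuD KO 2. HuD KO 1 and 3 thus lay inside or within 1 percentage point of the control range for these 3 shares. Exact two-sided permutation tests over 6 libraries gave p = 0.7, p = 0.6 and p = 0.7.

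**Figure D3:**
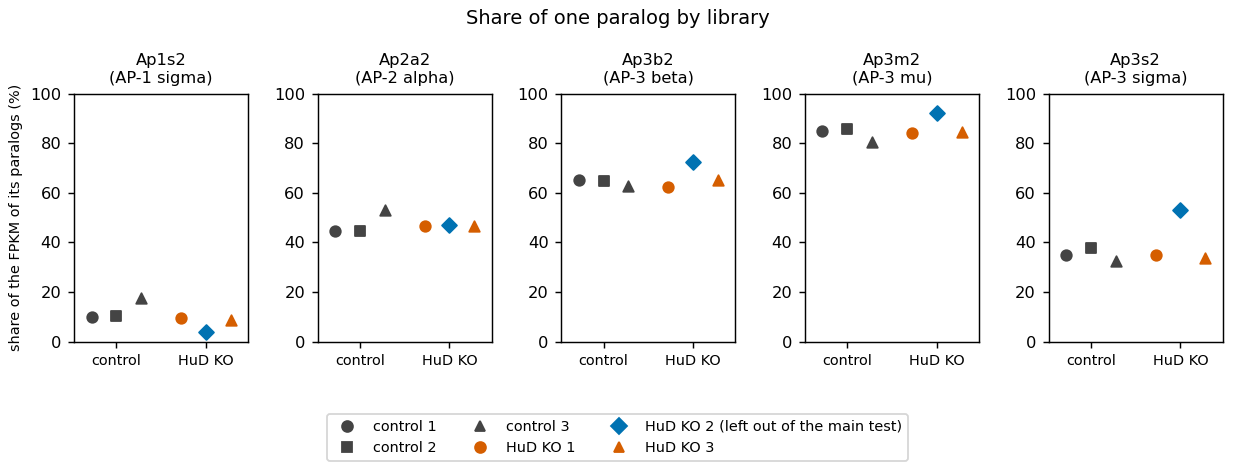
Share of 1 paralog in the summed FPKM of its paralogs (y axis, percent), by library, for 5 subunit positions. Grey marks are controls, orange marks HuD KO 1 and 3 and the blue diamond HuD KO 2. The blue diamond lies above all other points for *Ap3b2* (72.4%), *Ap3m2* (92.2%) and *Ap3s2* (53.2%) and below them for *Ap1s2* (4.06%).

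AP-4, whose loss in people causes a hereditary spastic paraplegia, had very unequal subunit mRNAs. *Ap4s1*, the sigma chain, was at 32.9, 37.9 and 28.6 FPKM in the control libraries and 32.9, 38.7 and 33.9 FPKM in the HuD KO libraries, and its mean was 25.8 times that of *Ap4e1*, the epsilon chain. *Ap4e1* was at 1.59, 1.10 and 1.44 FPKM in the controls, against 1.37, 1.30 and 1.15 FPKM in the HuD KOs, with all HuD KOs inside the control range. Its log2 fold change was -0.07 (95% interval -0.39 to 0.25), and that of *Ap4s1* was the highest of the complex at 0.02 (95% interval -0.30 to 0.34). The lowest was the beta chain *Ap4b1*, at -0.17 (95% interval -0.52 to 0.18), from 4.00, 5.13 and 4.25 FPKM in the control libraries and 3.36, 3.94 and 4.36 FPKM in the HuD KO libraries. HuD KO 1 and 2 were below the controls and HuD KO 3 was among them. Of the 2907 exon bases of *Ap4b1*, 2396 are shared with an annotated gene on the same strand, *Gm43064*, so its value is uncertain.

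AP-5 had the lowest summed mRNA level of all groups, at 10.1 FPKM in controls. AP-4 summed to 42.4 FPKM there, of which *Ap4s1* alone gave 33.1 FPKM. *Ap5b1*, the beta chain, was at 0.669, 0.939 and 1.08 FPKM in the controls, against 0.881, 0.984 and 0.940 FPKM in the HuD KOs, inside the control range (log2 fold change 0.02, 95% interval -0.30 to 0.33). *Ap5s1* (chr2:131207078-131213514, mm10), the sigma chain, was at 4.19, 3.96 and 4.82 FPKM in the control libraries and 3.40, 5.97 and 3.28 FPKM in the HuD KO libraries. HuD KO 1 and 3 were below every control and HuD KO 2 was above every control. The log2 fold change was -0.29 (SE 0.106, 95% interval -0.56 to -0.03, limma adjusted p = 0.995) over 5 libraries and -0.06 (95% interval -0.54 to 0.41) over 6. *Ap5s1* did not pass the correction, and was under the unadjusted threshold only with HuD KO 2 left out. With a control left out as well, it stayed there only without control 2. *Ap5m1*, the mu chain, was at 2.33, 2.02 and 2.34 FPKM in the controls, against 2.32, 1.12 and 1.42 FPKM in the HuD KOs (log2 fold change -0.19, 95% interval -0.58 to 0.21), with HuD KO 1 among the controls.

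The median size of the log2 fold change, without sign, was 0.06 for the monomeric adaptors and 0.03 for AP-2. *Clint1*, which encodes the epsin-related adaptor EpsinR, was at 7.12, 8.44 and 9.09 FPKM in the control libraries and 8.01, 6.70 and 8.39 FPKM in the HuD KO libraries, with a log2 fold change of 0.0025 (95% interval -0.29 to 0.29). GGA proteins bind sorting signals of the mannose 6-phosphate receptors at the trans-Golgi network. *Gga1*, the most abundant, was at 16.6, 17.9 and 17.5 FPKM in the controls, against 16.5, 22.8 and 16.1 FPKM in the HuD KOs (log2 fold change -0.08, 95% interval -0.27 to 0.11). *Gga2*, the least abundant, was at 1.97, 2.69 and 2.61 FPKM in the control libraries and 2.99, 3.13 and 2.33 FPKM in the HuD KO libraries (log2 fold change 0.10, 95% interval -0.26 to 0.46). *Gga1* made up 59.3% to 60.7% of GGA FPKM in controls, 57.0% and 58.5% in HuD KO 1 and 3 and 65.6% in HuD KO 2, so HuD KOs lay on both sides of the controls.

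The median size of the log2 fold change, without sign, was 0.15 for BLOC-1, the highest of the 7 groups of adaptor genes. It was 0.06 over the 39 genes and 0.09 over all genes. AP-5 followed at 0.13, and the genes of BLOC-2 and BLOC-3, described further on, had 0.16. Of the 8 BLOC-1 genes 4 had fitted values above 0 and 4 below. The summed FPKM of BLOC-1 was 78.1 to 82.2 in controls, 77.8 and 76.9 in HuD KO 1 and 3 and 93.9 in HuD KO 2. HuD KO 2 was the highest library for 4 of the 8 subunits and the lowest for 3, and for *Bloc1s6* HuD KO 1 was the highest.

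**Figure D4:**
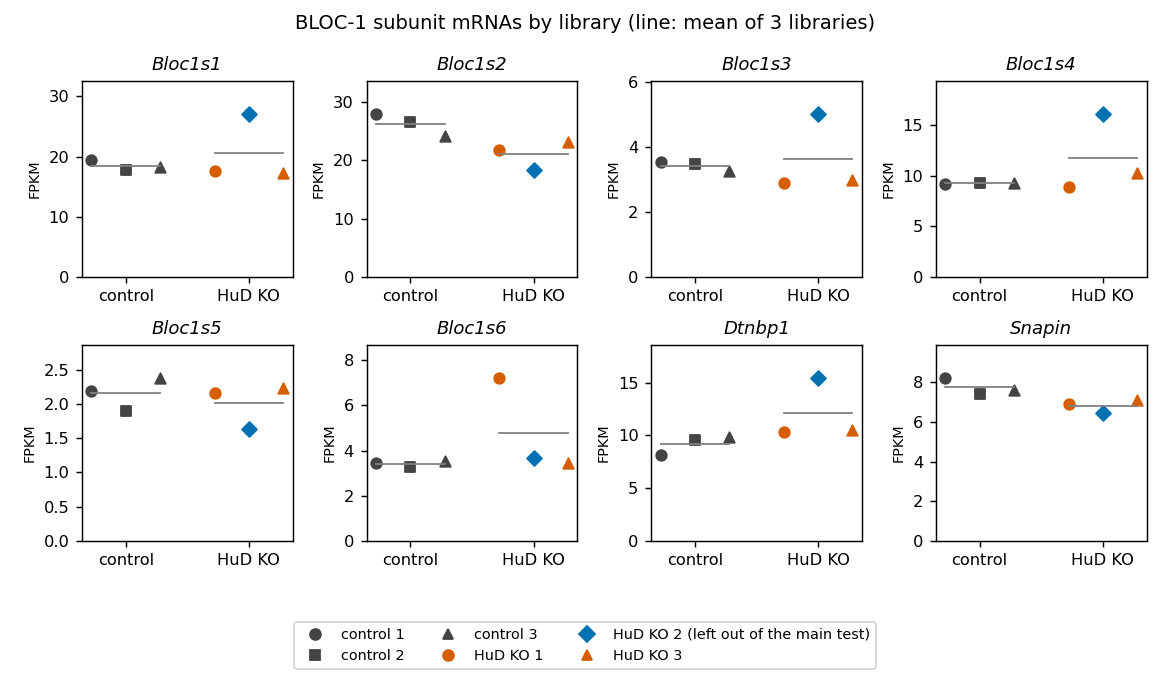
FPKM (y axis, from 0) of the 8 BLOC-1 subunit mRNAs in each library, with a line at the mean of the 3 libraries of each genotype. Controls are grey, HuD KO 1 and 3 orange and HuD KO 2 blue. Genotypes do not overlap for *Bloc1s2* and *Snapin* (lower in HuD KO) and *Dtnbp1* (higher in HuD KO), and the raised mean of *Bloc1s6* rests on HuD KO 1 at 7.22 FPKM.

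*Dtnbp1* (chr13:44922075-45002147, mm10) encodes dysbindin, the BLOC-1 subunit known for its place at synapses and for the sandy mouse, in which it is deleted. It was at 8.18, 9.57 and 9.82 FPKM in the controls, against 10.3, 15.5 and 10.5 FPKM in the HuD KOs, and was the only one of the 39 genes higher in every HuD KO than in every control. HuD KO 1 and 3 were just above the controls and HuD KO 2 far above. The log2 fold change was 0.17 (95% interval -0.09 to 0.42, limma adjusted p = 0.995) over 5 libraries and 0.34 (95% interval -0.06 to 0.74, limma adjusted p = 0.871) over 6.

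*Bloc1s2* (chr19:44139266-44146446, mm10), a subunit that BLOC-1 shares with the lysosome-positioning complex BORC, was at 28.0, 26.6 and 24.1 FPKM in the control libraries and 21.7, 18.4 and 23.1 FPKM in the HuD KO libraries. All HuD KOs were below all controls. The log2 fold change was -0.21 (95% interval -0.44 to 0.01, limma adjusted p = 0.995) over 5 libraries and -0.31 (95% interval -0.59 to -0.02, limma adjusted p = 0.871) over 6. *Snapin*, a SNAP-25-binding subunit also shared with BORC, was at 8.23, 7.43 and 7.62 FPKM in the controls, against 6.92, 6.45 and 7.11 FPKM in the HuD KOs. It too was lower in every HuD KO, with a log2 fold change of -0.13 (95% interval -0.34 to 0.08). Of its 2290 exon bases, 354 lie opposite exons of *Ilf2*, and whether counting used the strand remains not given in the sources used here.

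*Bloc1s6* (chr2:122738503-122749475, mm10), which encodes pallidin, stood highest among the 39 genes, with a log2 fold change of 0.46 (95% interval -0.18 to 1.09). It was at 3.45, 3.25 and 3.52 FPKM in the control libraries and 7.22, 3.68 and 3.46 FPKM in the HuD KO libraries. HuD KO 1 stood alone and the other 5 libraries lay within 3.25 to 3.68 FPKM. Without HuD KO 1 the log2 fold change was 0.02, and without HuD KO 3 it was 0.90 (limma adjusted p = 0.492). HuD KO 1 had striatal markers at 140 FPKM and choroid plexus markers at 161 FPKM, and control 3 had them at 115 and 297 FPKM. Their part in the *Bloc1s6* value was not tested.

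The remaining BLOC-1 subunits differed in direction. *Bloc1s1*, also shared with BORC, was at 19.4, 17.7 and 18.2 FPKM in the controls, against 17.6, 27.1 and 17.2 FPKM in the HuD KOs, and *Bloc1s3* was at 3.54, 3.48 and 3.25 FPKM in the control libraries and 2.87, 5.02 and 2.98 FPKM in the HuD KO libraries. For both, HuD KO 1 and 3 were below every control and HuD KO 2 above. *Bloc1s1* shares 720 of its 1288 exon bases with *Rdh5* on the same strand and its value is uncertain. *Bloc1s4*, at 9.23, 9.31 and 9.26 FPKM, was almost constant over controls, and the HuD KOs had 8.94, 16.2 and 10.3 FPKM. *Bloc1s5*, the least abundant subunit, was at 2.19, 1.90 and 2.38 FPKM in the controls, against 2.16, 1.64 and 2.24 FPKM in the HuD KOs.

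HuD KO 2 was outside the range of the other 5 libraries for 29 of the 39 genes, where it was so for 63.9% of all genes. It lay above every control for 18 genes, where 36.3% of all genes did, and below every control for 13, where 35.7% of all genes did. *Bloc1s4* and *Dtnbp1* exceeded 1.5 times their highest control, where 6.01% of all genes did, and 5 genes were under their lowest control divided by 1.5, where 6.28% of all genes were. Control 3 was outside the other 5 libraries for 16 of the 39 genes, where it was so for 47.4% of all genes. The difference of HuD KO 2 from the mean of the 3 controls, in log2(FPKM + 1), followed the GC content of the transcripts. Its Spearman correlation with GC content was 0.74 over the 39 genes and 0.56 over 13045 genes. The same correlation over the 39 genes was -0.03 for HuD KO 1 and 0.21 for HuD KO 3. These are descriptions across genes of 1 library each, which share their control mean, preparation and depth.

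The 19 genes of lowest GC content (35.4% to 50.7%) had a median difference of HuD KO 2 from the controls of -0.25 on the log2 scale, with 12 genes below every control and 4 above. The 19 of highest GC content (52.9% to 62.2%) had a median of 0.29, with 1 below every control and 13 above. All genes below and above 50.9% GC, the median of the 39, had medians of -0.16 and 0.20. *Ap1s2* had the lowest GC content of the 39, 35.4%, and the lowest difference of HuD KO 2, -1.23. *Ap3s1* (GC content 40.9%) and *Ap3m1* (42.1%) followed at -0.89 and -0.87. *Bloc1s4* (55.5%) and *Dtnbp1* (55.8%) had the highest, 0.74 and 0.70. With the GC trend of each library removed, a step added after seeing the data, the log2 fold change over all 6 libraries was -0.49 for *Ap1s2*, 0.28 for *Dtnbp1* (95% interval -0.01 to 0.57) and -0.27 for *Bloc1s2* (limma adjusted p = 0.895), and none of the 39 genes passed the adjusted threshold, where 0.0307% of all genes did.

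**Figure D5:**
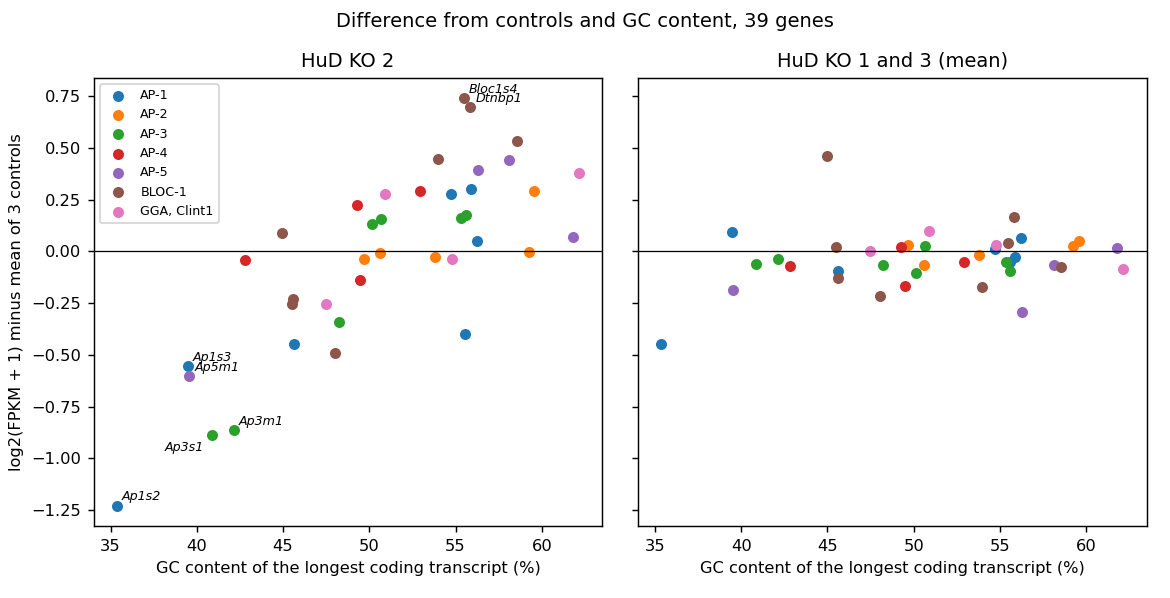
Difference in log2(FPKM + 1) from the mean of the 3 controls (y axis) against GC content of the longest coding transcript in percent (x axis), for HuD KO 2 (left) and the mean of HuD KO 1 and 3 (right), 1 point per gene, coloured by complex. In HuD KO 2 the lowest point is -1.23 for *Ap1s2* at 35.4% GC and the highest is 0.74 for *Bloc1s4* at 55.5% GC. Genes of higher GC content than *Bloc1s4* lie below it, such as *Ap2a1* (-0.003 at 59.3%) and *Gga1* (0.38 at 62.2%). In the right panel most points stay near 0 at all GC contents.

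On the study's list of mRNAs bound by HuD were 4 of the 39 genes, *Ap1s2*, *Ap3s1*, *Ap3s2* and *Clint1*, where 5.28% of all 13299 genes were on it by the same match of symbols. Over 5 libraries the log2 fold changes came to -0.45, -0.06, -0.10 and 0.0025, and none passed the adjusted threshold. *Ap4e1*, *Ap3s1*, *Clint1* and *Dtnbp1* were among the genes whose isoforms the study examined. FPKM sums over the isoforms of a gene, so these values say nothing of exon or poly(A) site use.

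The partners of the adaptors were read from 9 lists. No gene of any list passed the adjusted threshold (smallest adjusted p = 0.995 over 5 libraries and 0.871 over 6), and over 5 libraries only *Dab2*, *Aftph* and *Copz2* had an unadjusted p under 0.05, 4.17% of the 72 list genes tested against 3.43% of all genes. Fitted values were above 0 for 43.1% of the list genes, against 44.5% of all genes. The 3 clathrin chains were all slightly below 0, with a median log2 fold change of -0.09. *Clta*, the light chain a, had -0.10, and *Cltb*, the light chain b, had -0.09. Over all 6 libraries 2 of the 3 were above 0. Of 26 endocytic accessory genes tested, 9 were above 0 and 17 below, with a median of -0.02.

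The endocytic gene of smallest p was *Dab2*, an adaptor that links receptors of the LDL receptor family to AP-2. It was at 1.55, 1.47 and 1.21 FPKM in the control libraries and 0.799, 0.722 and 0.749 FPKM in the HuD KO libraries, lower in every HuD KO (log2 fold change -0.44, 95% interval -0.71 to -0.17, limma adjusted p = 0.995). Over all 6 libraries it was -0.45 (limma adjusted p = 0.871). The 8 meningeal fibroblast markers, none of them at 0 and all 8 with fitted values below 0, also summed lower in every HuD KO than in every control. Pericyte and smooth muscle markers did so too, at 70.6 to 80.3 FPKM in controls and 52.6 to 66.7 FPKM in HuD KOs. Of these 6 markers, 5 had fitted values below 0 and 1 above. The part of either marker list in the *Dab2* value was not tested. *Necap2*, a clathrin coat component, had -0.24.

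Among 10 AP-1 accessory genes, 7 were above 0 and 3 below. *Aftph* (aftiphilin), a clathrin and AP-1 partner, was at 10.8, 9.27 and 8.20 FPKM in the controls, against 12.3, 9.41 and 12.3 FPKM in the HuD KOs (log2 fold change 0.36, limma adjusted p = 0.995). HuD KO 2 was inside the control range. *Arf3*, a small GTPase that recruits AP-1, was at 246.9, 259.9 and 260.2 FPKM in the control libraries and 283.0, 338.1 and 282.0 FPKM in the HuD KO libraries, higher in every HuD KO (log2 fold change 0.14, 95% interval -0.03 to 0.32).

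The AP-3 cargo genes had 1 of 6 above 0 and 5 below, with a median of -0.05, and *Cd63* and *Lamp1*, lysosomal membrane proteins, had -0.08 and -0.05. Of the 5 genes of BLOC-2 and BLOC-3, the complexes that with BLOC-1 and AP-3 are lost in Hermansky-Pudlak syndrome, 4 were below 0, with a median of -0.16. *Hps5* had -0.20 and *Hps1* -0.27. Over all 6 libraries 3 of the 5 were below 0, the median was -0.08, and *Hps5* and *Hps1* had -0.10 and -0.08. The 5 BORC subunits that BLOC-1 lacks had 2 above 0 and 3 below, with *Borcs5* at 0.16 and *Kxd1* at -0.13, and their median was -0.003 over 5 libraries and -0.09 over 6. The AP-4 partners had 4 of 7 above 0, with *Fam160a2* at 0.08 and *Rusc1* at -0.07, and the AP-5 partners *Spg11* and *Zfyve26* had 0.02 and -0.01. Some subunits of the COPI coat of Golgi vesicles are related to the AP subunits. Of 9 COPI genes, 6 were above 0 and 3 below. *Copz2*, a zeta chain, had -0.33 (95% interval -0.57 to -0.10, limma adjusted p = 0.995) and *Cope* had 0.10. With HuD KO 2 included, the COPI genes had 4 above 0 and 5 below, and their median went from 0.01 to -0.06.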

How the data were processed

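The deposited tables hold linear FPKM per gene. The authors ran FastQC 0.11.5 on the reads, used cutadapt and Trimmomatic for trimming, and mapped them to mm10 by STAR 2.7.3a; how FPKM was then obtained remains not given in the sources used here. Both tables list 13299 genes with equal values for 5 shared libraries, and 1 line of sums per table was left out. Their log2 fold changes, fold changes, p-values and q-values, which are from the authors' own comparison, were not used. Sums of FPKM (216651 to 227439 per library) do not measure depth.

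Testing used log2(FPKM + 1), which understates the change of low genes, for genes averaging at least 0.5 FPKM, and was done in limma 3.58.1 under R 4.3.3 (lmFit, eBayes with trend), with two-sided p-values adjusted by Benjamini-Hochberg over 13121 genes (5 libraries) or 13114 (6). Each library is 1 mouse. Shares were compared with SciPy 1.17.1, and the fits were tested on simulated data. GC content and overlaps came from GENCODE M21. Besides the overlaps given above, some exon bases were shared with or lay opposite another gene for *Ap3b2* (352 of 6293, same strand) and *Ap3s2* (225 of 5905). The same held for *Ap5m1* (528 of 11392) and *Gga2* (720 of 9769), among others. The genes, lists and tests were chosen with earlier results of these data known. Named with values were genes in the study's results, at an unadjusted p under 0.05, highest or lowest in level or fold change in a complex, with groups apart over 6 libraries, or paralogs, and up to 2 genes of smallest p per list. *Ap5m1*, *Bloc1s1*, *Bloc1s3* and *Bloc1s4* were named after their values were seen. Alternatives were all 6 libraries, each library left out, a pseudocount of 0.1, a filter at 2 FPKM or none, quantile normalization, median scaling, no variance trend, the replicate number as a block and, added after seeing the data, removal of the GC trend (loess, span 0.3).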

Additional observations from a re-analysis of the deposited data

Results flagged for a closer look

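HuD KO replicate 2 lies outside the main comparison, and 2 of the 39 genes exceeded 1.5 times their highest control there, where 6.01% of all genes did. This is close to the share of all genes. In the other direction, 5 of the 39 were under their lowest control divided by 1.5, where 6.28% of all genes were. *Bloc1s4* was at 16.2 FPKM in that library, against 9.23 to 9.31 FPKM in controls and 8.94 and 10.3 FPKM in the other HuD KOs. *Dtnbp1* was at 15.5 FPKM, against 8.18 to 9.82 FPKM in controls and 10.3 and 10.5 FPKM in the other HuD KOs. Over the 39 genes, the differences of HuD KO 2 from the controls followed GC content, which was 55.5% for *Bloc1s4* and 55.8% for *Dtnbp1*. These 2 genes had differences of 0.74 and 0.70 on the log2 scale. The other genes of 55.3% to 55.9% GC had -0.40 (*Ap1m1*), 0.16 (*Ap3d1*), 0.17 (*Ap3b2*) and 0.30 (*Ap1s1*). The part of GC content in the *Bloc1s4* and *Dtnbp1* values was not tested. With 3 libraries per genotype no test for a single outlying library was run.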

How the results depend on the processing

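None of the 39 genes passed the adjusted threshold under any of the 16 other settings. The fits without HuD KO replicate 1 or 3 held a single HuD KO library, so their p-values carry no spread among HuD KOs. The number at an unadjusted p under 0.05, 1 in the main comparison, was 2 with quantile normalization. It was 0 to 1 with a control left out (0 without control replicate 1). The 6 genes of the whole table that passed became 2 with a pseudocount of 0.1 and 2 to 11 with a library left out (2 without control replicate 1 or HuD KO replicate 1, 11 without control replicate 3), and the 450 at an unadjusted p under 0.05 became 281 (without HuD KO replicate 1) to 816 (without control replicate 3). The median log2 fold change of the 39 genes, -0.05, was 0.0083 over all 6 libraries and -0.072 to -0.0086 with a library left out (-0.0086 without control replicate 3). Signs of fitted values changed for 0 to 12 of the 39 genes, 10 of them over all 6 libraries. The cause was not tested.

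Whether a control and a HuD KO of one number share more than the number, such as a litter, is not given by the labels. Their correlations of deviations were -0.13, 0.18 and 0.04, against -0.21 to 0.24 for a control and a HuD KO of different number. With the replicate number as a block, 0 of the 39 genes had an unadjusted p under 0.05 over 5 libraries and 1 (*Ap1s2*) over 6, with 3 genes of the whole table passing in each and a median of 0.0083 over 6 libraries. Without counts, neither depth nor detection limits can be given. The 95% interval of the log2 fold change reached beyond 0.5 from 0 for 6 of the 39 genes. For the others, smaller differences could still have been missed.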
